A study of Mus musculus with 6 samples.

Results

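The R2TP complex and the HSP90 chaperone machinery were examined here as 8 genes, *Ruvbl1*, *Ruvbl2*, *Pih1d1*, *Rpap3*, *Hsp90aa1*, *Hsp90ab1*, *Hspa8* and *Ptges3*, chosen by symbol for their place in the cytoplasmic assembly of axonemal dynein. All 8 symbols had a row among the 20483 genes of the count table. The cells were primary tracheal epithelial cells of C57BL/6 mice, 12 weeks old, differentiated at air-liquid interface (ALI). Cultures of 3 *WT/WT* mice were compared with cultures of 3 mice that the labels call DNAAF5 mutants. These mice were homozygous for a missense allele of *Dnaaf5* (*MIS/MIS*), in which cysteine is replaced by phenylalanine. The allele was made by CRISPR-Cas9 editing together with an upstream synonymous change, and all cells of the animal carry it. *Dnaaf5* encodes a dynein axonemal assembly factor, and variants in the human gene cause primary ciliary dyskinesia. The comparison asks whether the chaperone genes are expressed differently where this factor is altered.

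Axonemal dynein motors are large complexes that are folded and put together in the cytoplasm before they enter the cilium. R2TP is a cochaperone of HSP90 in which the AAA+ ATPases RUVBL1 and RUVBL2 form a ring, PIH1D1 binds clients, and RPAP3 carries tetratricopeptide repeats that hold HSP90 and HSP70. The same complex serves other clients, among them small nucleolar ribonucleoproteins, RNA polymerase II and kinases of the PIKK family, and the RUVBL proteins are also subunits of chromatin remodellers. In multiciliated cells, R2TP and R2TP-like complexes work with the DNAAF proteins on dynein.

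Values are counts of unique molecular identifiers (UMIs), which label single transcript molecules, from a droplet assay that reads the 3′ end. UMIs were summed per mouse within each of the 16 cell types of the authors' annotation, or within the multiciliated, secretory and basal classes that join their subclusters, and divided by the total of that sum on the usual CPM scale, which removes differences in depth. The table held 23871 cells, and 67 of 23804 distinct barcodes occurred in more than 1 library. A cell type was taken per mouse where it had at least 20 cells, which left 14 cell types with at least 2 mice of each genotype. The ionocyte cluster (28 cells) and the neuroendocrine cluster (163 cells) are given as pooled values, which rest mostly on MT1383 with 19 and 108 of these cells. Most names matched their marker lists, and 6 multiciliated genes summed to 2909 CPM in Multiciliated4, 2573 in Multiciliated3 and 2049 in Multiciliated2. Multiciliated2 was also the highest cell type for 6 early multiciliated genes (1213 CPM), and it was second to Basal6 for 5 cycling genes (518 and 1221 CPM). Multiciliated2 also had 3533 CPM of the 5 secretory genes, more than of its own list, where Multiciliated3 had 204 and Multiciliated4 219. As means over mice, *Bpifa1* was at 2677 CPM in Multiciliated2, *Scgb3a2* at 794 and *Scgb1a1* at 82.2, with *Muc5b* at 0.68 and *Muc5ac* at 0.029. Secretory genes stood beside the basal list in Basal2 (4583 and 4304 CPM) and Basal6 (5656 and 5987 CPM) too. Other names with mixed lists were Multiciliated1, with 552 CPM of the multiciliated list beside 2202 of the basal and 2700 of the secretory list, and Basal7, with 1361 CPM of the basal list where the other basal clusters had 3630 to 7572. Multiciliated4, with 146 cells, had a median of 10197 UMIs per cell and of 1.29% mitochondrial UMIs. The medians of the other multiciliated cell types were 26359.5 to 38781 UMIs and 8.51% to 10.9%, so levels in Multiciliated4 come from few cells of low RNA content. *Dnaaf5* itself was measured at 42.1, 38.2 and 49.4 CPM in multiciliated cells of the *WT/WT* mice and at 54.8, 54.9 and 49.3 in those of the *MIS/MIS* mice (log2 fold change 0.28, limma's voom test, adjusted p = 0.90), and since the allele is a missense change its level is no check of the genotype.

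The promoters are shown for *Ruvbl1* and *Pih1d1*, a pair of R2TP genes with unlike patterns over the cell types. The sequences are those of RefSeq on GRCm38.p6, 250 bases up to the annotated start, 5′ to 3′ on the gene's strand, with 5 motifs searched on both strands and set in capitals where found. The window of *Ruvbl1* lies at chr6:88465159-88465408 (plus strand) and that of *Pih1d1* at chr7:45154053-45154302 (plus strand), and neither holds bases of an annotated exon of its gene.
Ruvbl1: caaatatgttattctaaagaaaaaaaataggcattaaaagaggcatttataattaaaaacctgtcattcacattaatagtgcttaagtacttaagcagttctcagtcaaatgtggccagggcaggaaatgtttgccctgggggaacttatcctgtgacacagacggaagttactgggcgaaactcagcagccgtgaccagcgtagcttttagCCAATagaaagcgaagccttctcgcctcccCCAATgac
Pih1d1: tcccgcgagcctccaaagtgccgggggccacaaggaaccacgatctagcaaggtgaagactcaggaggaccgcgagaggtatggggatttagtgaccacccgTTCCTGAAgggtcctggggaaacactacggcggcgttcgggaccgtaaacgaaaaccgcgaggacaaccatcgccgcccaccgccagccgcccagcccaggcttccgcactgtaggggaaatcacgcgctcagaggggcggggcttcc
The *Ruvbl1* window holds 2 CCAAT boxes (CCAAT), a motif present in 33.8% of 32851 promoter windows of the same length. The *Pih1d1* window holds 1 pair of heat-shock half-sites in the tail-to-tail arrangement (TTCNNGAA, in 7.17% of windows). A further *Pih1d1* window of the table, at chr7:45155579-45155828, holds 1 CCAAT box and 1 TTCNNGAA. The windows of *Ruvbl2*, *Ptges3* and *Rpap3* hold 2, 0 and 0 CCAAT boxes, and that of *Rpap3* holds 1 head-to-head heat-shock pair (GAANNTTC). These windows overlap annotated exons and are not printed. Neither printed window holds the head-to-head pair GAANNTTC (6.69% of windows), the RFX half-site GTTGCC (10.4%) or the FOXJ1-like motif GTAAACA (3.17%). A match is a run of letters and not a measured binding site.

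The RUVBL ATPases had the widest range over the cell types. *Ruvbl1* (chr6:88465409-88497572 on GRCm38, plus strand) was highest in Multiciliated2, with 268, 271 and 316 CPM in the *WT/WT* mice and 285, 333 and 333 in the *MIS/MIS* mice. Multiciliated4 (mean 238 CPM ± 48.8, SD, n = 5 mice) and Multiciliated3 (201 ± 17.6, n = 6) followed, and their mice overlapped with those of Multiciliated2 or of each other. Multiciliated1 had 60.3 CPM ± 7.01, and the 10 basal and secretory cell types lay between 22.6 CPM in Secretory1 and 52.4 in Basal6. The lowest mouse of Multiciliated3 (173 CPM) stood above the highest mouse of any of these 10 (56.8). *Ruvbl2* (chr7:45421760-45438096, minus strand) had the same first 3 cell types, at 284 ± 28.6 in Multiciliated2, 192 ± 26.1 in Multiciliated4 and 127 ± 6.95 in Multiciliated3, and each of these stood apart from the next in every mouse. It was lowest in Secretory1 (14.8 ± 1.13), which is 19.3 times below Multiciliated2, against 13.3 times for *Ruvbl1*. Outside the multiciliated cells both genes were highest in Basal6, the cluster with the most cycling markers, with *Ruvbl2* at 46.6 ± 5.55 CPM.

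The 2 adaptors of the complex did not share this pattern. *Pih1d1* (chr7:45154303-45160065, plus strand), the client-binding subunit, was highest in Multiciliated2 (67.3 CPM ± 6.01, n = 6) and Basal6 (60.0 ± 3.22), and the mice of these overlapped. These cell types had the highest sums of the 5 cycling genes, but not of each gene alike. In Multiciliated2 *Cdk1* (286 CPM) and *Top2a* (177) were high, as in Basal6 (254 and 390). *Mki67* (8.22) and *Birc5* (8.44) were low in Multiciliated2, against 232 and 236 in Basal6. Every mouse of Basal6 (lowest 54.6) stood above every mouse of Multiciliated4, which was next (38.6 ± 5.93). Multiciliated3, the largest multiciliated cluster with 2712 cells, had 27.4 ± 2.45 CPM of *Pih1d1*, within the range of the basal cell types. *Rpap3* (chr15:97675097-97705825, minus strand), the scaffold that holds the chaperones, was highest in Multiciliated4 (89.0 ± 26.9, n = 5), the cell type with the lowest median of UMIs per cell. Its mice ranged there from 44.8 to 112. Multiciliated3 (57.5 ± 3.18) and Multiciliated2 (55.5 ± 6.81) were close to each other, and each of their mice, from 47.4 up, stood above Multiciliated1 (21.2 ± 3.45) and above the basal and secretory cell types (12.3 to 20.2). *Rpap3* therefore had overlapping levels in Multiciliated2 and Multiciliated3, with 1213 and 28.2 CPM of the early multiciliated list, whereas every mouse of the former stood above every mouse of the latter for *Pih1d1*.

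The 2 cytosolic HSP90 genes differed most from each other. *Hsp90aa1* (chr12:110690605-110702728, minus strand), the isoform known as inducible by stress, was at 6717, 6364 and 7418 CPM in Multiciliated2 of the *WT/WT* mice and at 5921, 6847 and 6535 in the *MIS/MIS* mice. The means were 4242 ± 254 in Multiciliated3, 3776 ± 240 in Multiciliated4 and 1487 ± 190 in Multiciliated1. The 10 basal and secretory cell types had 615 to 1124 CPM, and no mouse of them passed 1208, so that every multiciliated cell type lay above them. *Hsp90ab1* (chr17:45567775-45573271, minus strand), the constitutive isoform, had its highest mean in Basal1 (2474 ± 266) and its lowest in Multiciliated2 (1390 ± 86.4), the cell type in which *Hsp90aa1* was highest. None of its 13 pairs of neighbours in the order stood apart over mice, and its highest and lowest means differed by 1.78 times, against 10.8 times for *Hsp90aa1*.

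*Hspa8* (chr9:40800984-40810087, plus strand) encodes HSC70, the constitutive HSP70 that hands clients to HSP90. It had 1451 ± 131 CPM in Multiciliated2, 1422 ± 137 in Multiciliated3 and 1386 ± 198 in Multiciliated4, and 633 ± 82.0 in Basal4 at the other end. No pair of neighbours stood apart, since Basal7 (1168 ± 296), Basal1 (1164 ± 139) and Basal6 (1118 ± 99.8) overlapped with the multiciliated cell types. *Ptges3* (chr10:128058954-128077272, plus strand) encodes p23, the cochaperone that binds HSP90 in its closed, ATP-bound state. It had 1392, 1184 and 1349 CPM in Multiciliated2 of the *WT/WT* mice and 1274, 1313 and 1392 in the *MIS/MIS* mice, above every mouse of any other cell type. Its levels then were 834 ± 67.1 in Multiciliated4, 706 ± 49.0 in Multiciliated3, 350 ± 10.2 in Basal6 and 344 ± 31.2 in Multiciliated1, and 223 to 273 in the remaining 9 cell types. In this order and in its steps it followed *Hsp90aa1* more than *Hsp90ab1*.

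**Figure D1:**
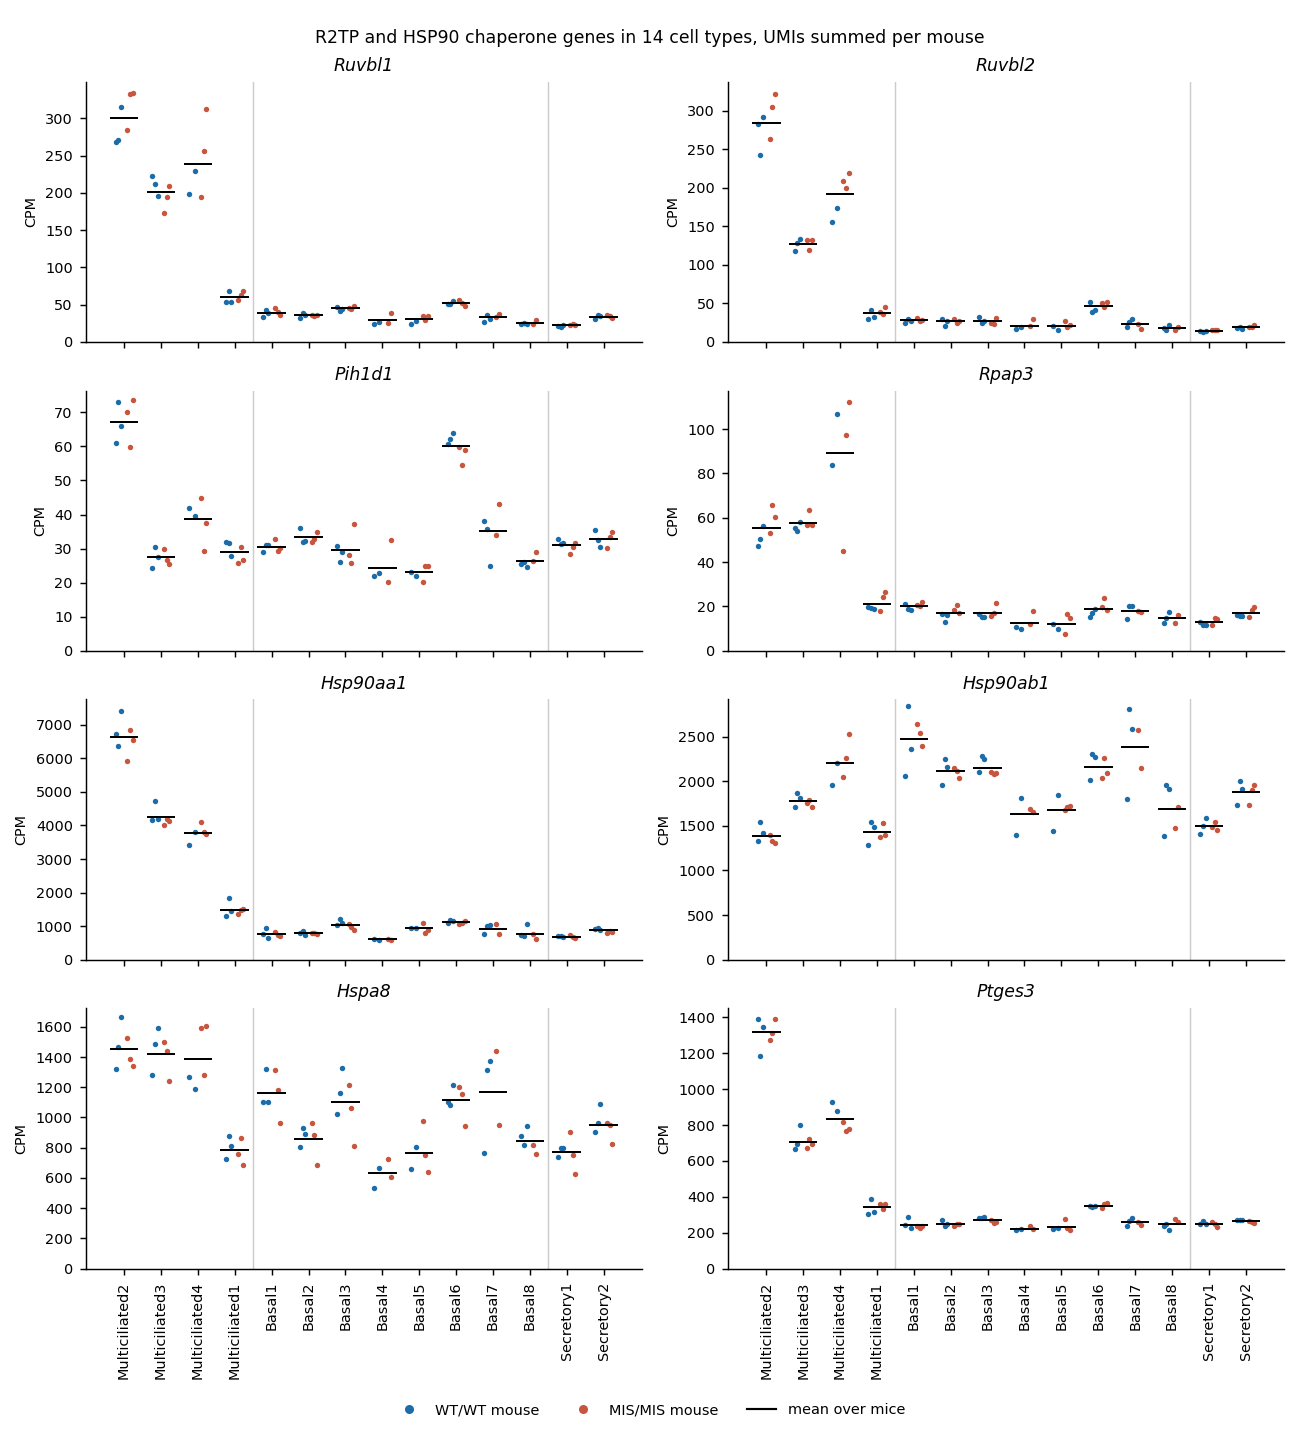
Levels of the 8 genes in CPM (linear axes from 0) in 14 cell types, with 1 point per mouse, *WT/WT* mice on the left and *MIS/MIS* mice on the right of each position, and a line at the mean over mice. *Ruvbl1*, *Ruvbl2*, *Hsp90aa1* and *Ptges3* are highest in Multiciliated2, *Rpap3* in Multiciliated4, *Pih1d1* in Multiciliated2 and Basal6, and *Hsp90ab1* is lowest in Multiciliated2.

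In the rare cell types the counts were small. The ionocytes held 11 UMIs of *Ruvbl1*, or 15.9 CPM (95% exact Poisson interval 7.92 to 28.4, for counting error only), and 4 UMIs of *Ruvbl2* (5.77 CPM, 1.57 to 14.8). *Rpap3* had 27 UMIs there, or 38.9 CPM (25.7 to 56.6), against 14.04 (9.33 to 20.3) in the neuroendocrine cells. *Hsp90aa1* was at 698 CPM (637 to 763) in ionocytes and 1089 (1043 to 1136) in neuroendocrine cells, near the basal cell types. The 3 immune markers summed to 6613 CPM in the ionocyte cluster, all of it from *Lyz2*, since *Ptprc* and *Cd3e* had no UMI there.

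Between the classes, 5 of the 8 genes were at least 2-fold higher in multiciliated than in basal cells. The same held for 26.1% of all 15942 genes tested and for 19.3% of the 9515 genes with at least 10 CPM in a class. Since the cell types were clustered on the expression of all genes, these ratios are descriptions without a test. *Ruvbl2* was 5.43 times higher (range over mice 5.09 to 6.29), *Ruvbl1* 5.04 times (4.30 to 6.72), *Hsp90aa1* 4.72 times (4.20 to 5.24), *Ptges3* 2.98 times (2.87 to 3.16) and *Rpap3* 2.92 times (2.65 to 3.43). *Hspa8* (1.31, 1.13 to 1.66) and *Pih1d1* (1.203, 1.03 to 1.41) were near the median ratio of all genes, which was 1.18, and *Hsp90ab1* was lower in multiciliated cells of every mouse (0.77, 0.66 to 0.97). Against secretory cells the same 5 genes passed 2-fold, where 29.3% of all genes did, with *Ruvbl2* at 8.73 times and *Ruvbl1* at 7.05 times. *Hsp90ab1* had a ratio of 0.99 there, with all mice between 0.97 and 1.02. TMM scaling, which centres the bulk of genes, moved the median of all genes from 0.23 to -0.022 on the log2 scale and the ratios of *Ruvbl2*, *Hspa8* and *Pih1d1* to 4.57, 1.1 and 1.01, and the same 5 genes stayed above 2-fold.

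The ratio of paralogues does not depend on the scaling of the libraries. *Hsp90aa1* made up 72.1%, 74.1% and 71.1% of the UMIs of the 2 cytosolic HSP90 genes in multiciliated cells of the *WT/WT* mice, and 71.7%, 70.3% and 71.5% in those of the *MIS/MIS* mice. In secretory cells its share was 31.6% ± 1.25 (SD, n = 6) and in basal cells 29.4% ± 1.81, so that the majority of HSP90 UMIs came from *Hsp90aa1* in multiciliated cells and from *Hsp90ab1* elsewhere. Within the multiciliated cells the share went from 82.6% ± 1.52 in Multiciliated2 to 70.5% ± 0.82 in Multiciliated3, 63.2% ± 2.49 in Multiciliated4 and 50.8% ± 2.05 in Multiciliated1. All 8 basal cell types had means between 23.8% and 35.9%, and no mouse of them passed 39.6%. The share of *Ruvbl1* in the UMIs of both ATPases, which form the ring in equal number, varied less. It was 57.1% ± 1.70 in multiciliated, 62.2% ± 1.45 in secretory and 58.8% ± 1.51 in basal cells, and the lowest mean was 51.4% ± 1.47 in Multiciliated2. These are shares of 3′ UMIs and not of protein.

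**Figure D2:**
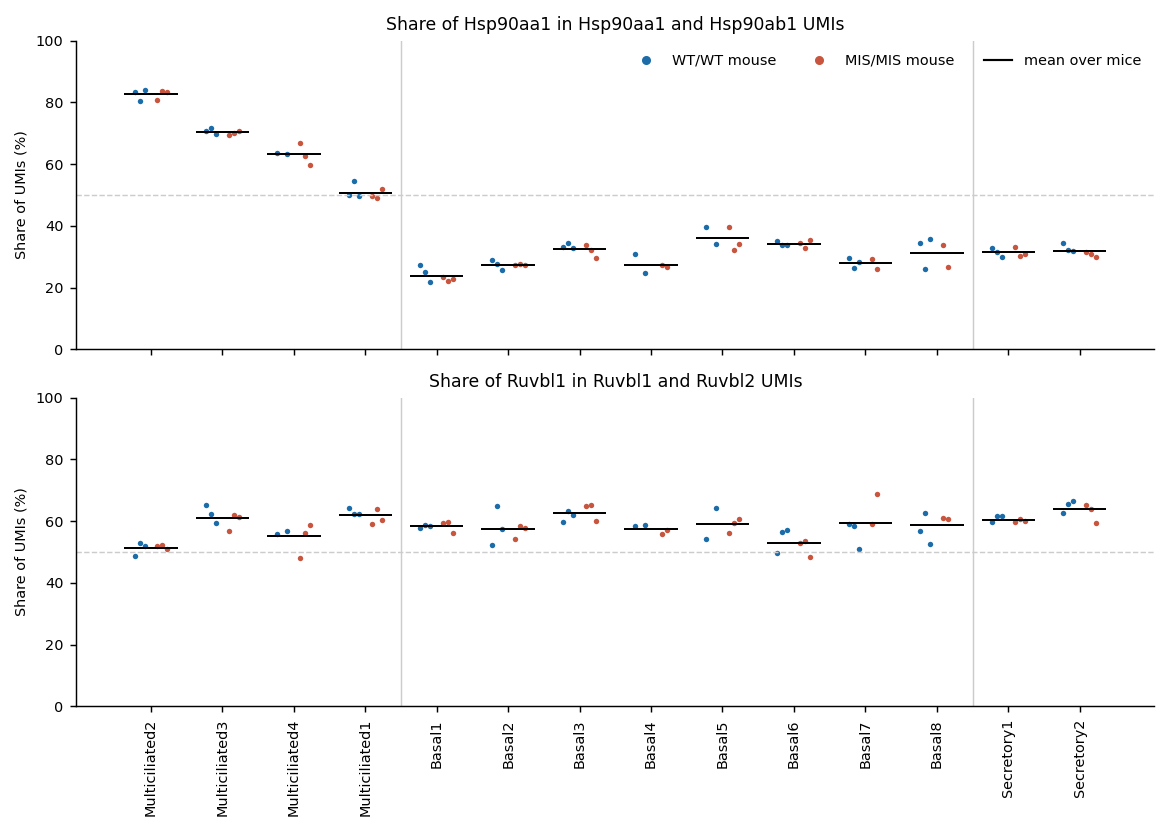
Share of *Hsp90aa1* in *Hsp90aa1* and *Hsp90ab1* UMIs (top) and of *Ruvbl1* in *Ruvbl1* and *Ruvbl2* UMIs (bottom) in percent for 14 cell types, with 1 point per mouse, a line at the mean and a dashed line at 50%. The *Hsp90aa1* share goes from 82.6% in Multiciliated2 to between 23.8% and 35.9% in the basal cell types, while the *Ruvbl1* share lies between 51.4% and 63.9%.

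Over the 16 cell types, *Ruvbl1* and *Ruvbl2* had a Pearson correlation of log2(CPM + 1) of 0.983, and each was the gene most like the other among 8669 genes with a mean of at least 10 CPM. The next for *Ruvbl1* was *Dzip1l* (0.975), and for *Ruvbl2* they were *Hdgfl2* (0.975) and *Ptges3* (0.965). *Hsp90aa1* and *Ptges3* were likewise most like each other (0.983), followed in both cases by *Poc5* (0.976), then by *1700001L19Rik* (0.965) for *Hsp90aa1* and *Cby1* (0.972) for *Ptges3*. *Rpap3* was most like *Sugt1* (0.958), *Nubpl* (0.952) and *Chordc1* (0.940). *Pih1d1* was most like *H2afz* (0.952), *Lsm4* (0.914) and *Lig1* (0.913), and had a correlation of 0.41 with *Ruvbl1* and of 0.76 with the cycling marker *Mki67*, against 0.14 between *Ruvbl1* and *Mki67*. *Hsp90ab1* had its closest genes at 0.899 (*Mrps9*), 0.866 (*Nae1*) and 0.857 (*Txnl1*), and its correlation with *Hsp90aa1* was -0.10. *Hspa8* was closest to *Fxr1* (0.911), *Kat8* (0.909) and *Elp5* (0.904). These values describe 16 cell types that come from the same 6 libraries and differ in depth.

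The partners of the 8 genes were counted in lists made by role. All 13 dynein assembly factors of the list that were in the table were at least 2-fold higher in multiciliated than in basal cells, with a median ratio of 29.3. The R2TP-like adaptors among them, which take the place of PIH1D1 or RPAP3 in other complexes or bind R2TP, ranged from *Wdr92* (36.9 against 8.24 CPM, 4.49 times) and *Spag1* (20.01 against 3.31 CPM, 6.04 times) to *Dnaaf2* (7.83 times), *Pih1d2* (149 against 4.51 CPM, 33.1 times) and *Dnaaf4* (36.8 against 0.64 CPM, 57.4 times). All 5 of these ratios were above those of *Pih1d1* and *Rpap3*.

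The other partner lists had lower medians, though single genes in them reached such ratios. Of 7 prefoldin-like partners of R2TP, 1 passed 2-fold (*Wdr92*, which is also in the list of assembly factors), and the median was 1.28. Of 15 clients and adaptors of R2TP outside the cilium, among them the box C/D and PIKK factors, 2 passed and the median was 0.91. Of 15 partners of RUVBL in chromatin remodellers, 3 passed (median 1.15), and of 14 subunits of the TRiC chaperonin and prefoldin, 0 passed (median 1.14), beside the 1.18 of all genes.

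Among 18 cochaperones of HSP90, 6 passed 2-fold and the median was 1.43. *Stip1*, the adaptor between HSP70 and HSP90, was at 199 CPM in multiciliated and 67.1 in basal cells (2.96 times), and *Ahsa1*, the activator of the HSP90 ATPase, at 146 and 57.1 (2.55 times). *Cdc37*, the cochaperone of kinases, was at 142 and 154 CPM (0.92 times). The highest ratio of this list was that of *Nudc*, at 866 and 125 CPM (6.90 times). The HSP90 paralogues of other compartments, *Hsp90b1* of the endoplasmic reticulum (1.40 times) and *Trap1* of mitochondria (1.58 times), did not reach 2-fold. Of 12 tested genes of the HSP70 and HSP110 families 4 passed, with *Hspa12a* highest (22.3 times). Of 31 HSP40 and exchange-factor genes 5 passed, with *Dnajb13* highest (139 times). The heat-inducible *Hspa1a* (10.9 against 33.5 CPM) and *Hspa1b* (22.5 against 73.6 CPM) were lower in multiciliated cells, as was the median of 8 heat-shock response genes (0.68). *Hsph1*, a nucleotide exchange factor of HSP70, was the 1 gene of that list above 2-fold (252 against 46.2 CPM, 5.44 times).

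**Figure D3:**
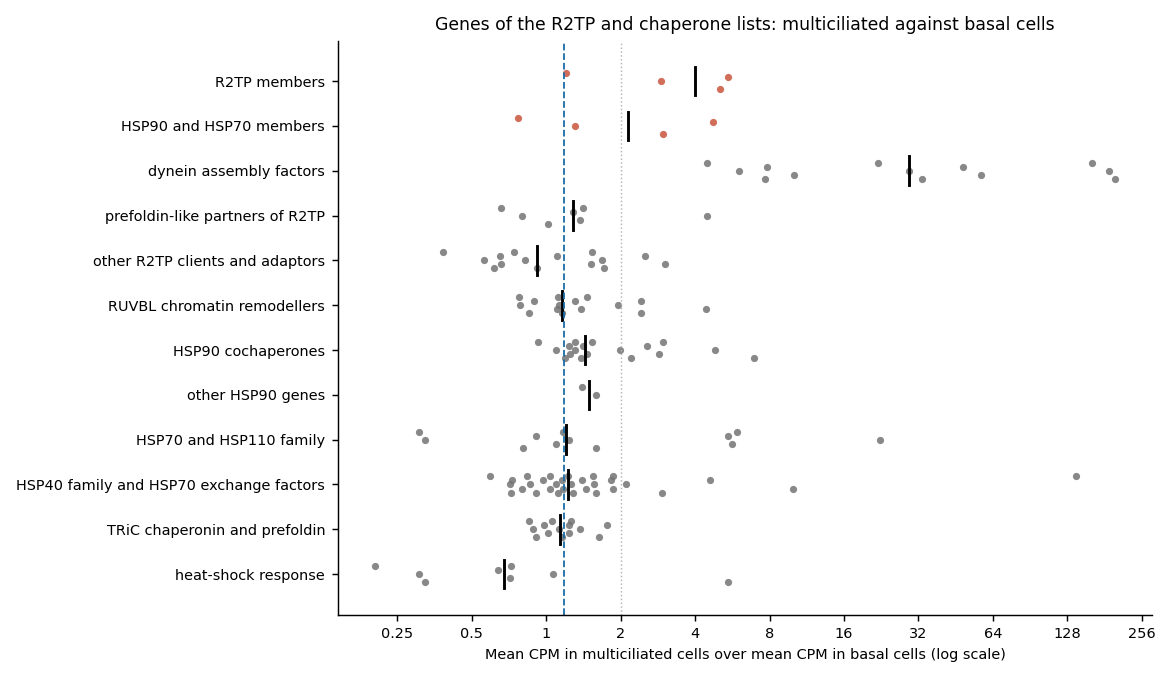
Ratio of the mean CPM in multiciliated cells to that in basal cells (log scale) for the tested genes of 12 lists, with 1 point per gene, the examined genes in red, a black line at the median of a list, a dashed line at the median of all genes (1.18) and a dotted line at 2-fold. The dynein assembly factors all lie above 2-fold with a median of 29.3, and the medians of the other partner lists lie between 0.68 and 1.49.

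In multiciliated cells, none of the 8 genes passed the threshold of an adjusted p under 0.05 between *MIS/MIS* and *WT/WT* mice (limma's voom test over 14206 genes), where 0.00704% of all genes did. At an unadjusted p under 0.05 there were also 0 of the 8, against 614 of all genes. The adjusted p-values of the 8 genes lay between 0.896 and 0.973.

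*Ruvbl1* was at 183.6, 204.2 and 181.0 CPM in the *WT/WT* mice and at 180.0, 189.8 and 192.2 in the *MIS/MIS* mice (log2 fold change -0.041, standard error 0.079). *Ruvbl2* was at 131, 156 and 138 CPM and at 150.2, 129 and 146 (-0.021, 0.094). For both ATPases the mice of the genotypes were interleaved.

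*Pih1d1* was at 35.3, 48.5 and 35.2 CPM in the *WT/WT* mice and at 40.5, 31.3 and 36.4 in the *MIS/MIS* mice (log2 fold change -0.16, standard error 0.15). Its highest value was that of *WT/WT* mouse 2, which also had the most early multiciliated (455 CPM) and cycling markers (196 CPM) in these cells. Whether these values are linked was not tested. *Rpap3* was at 43.8, 44.8 and 47.9 CPM and at 47.5, 57.9 and 48.3 (0.14, 0.099), and was the 1 of the 8 genes with a positive difference, with MT1306 as the highest mouse and a narrow overlap of the groups.

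*Hsp90aa1* was at 3906, 4762 and 4075 CPM in the *WT/WT* mice and at 3988, 4035 and 3826 in the *MIS/MIS* mice (log2 fold change -0.12, standard error 0.10), with *WT/WT* mouse 2 again highest and the other mice overlapping. *Hsp90ab1* was at 1509, 1663 and 1657 CPM and at 1578, 1704 and 1528 (-0.026, 0.086). *Hspa8* was at 1127, 1340 and 1394 CPM and at 1351, 1329 and 1088 (-0.052, 0.12), and its lowest mice, *WT/WT* mouse 1 and MT1383, belonged to different genotypes. *Ptges3* was at 732, 829 and 775 CPM and at 776, 727 and 739 (-0.081, 0.080), again with an overlap. The ranges of the genotypes did not stand apart for any of the 8 genes, where they did so for 10% of all genes.

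The 95% confidence intervals of the 8 differences in multiciliated cells reached from 0.705-fold to 1.29-fold, so that larger changes in either direction lay outside every interval. The widest was that of *Pih1d1*. UMIs per mouse in these cells were fewest for *Pih1d1* (477 to 1935), and *Hsp90aa1* had 52829 to 203599. The widths did not follow the UMIs throughout. *Hspa8*, with 15249 to 57880 UMIs, had a larger standard error than *Rpap3*, with 592 to 2570. In secretory cells 0 of the 8 genes passed, at a background of 0.00735%, with 0 at an unadjusted p under 0.05 and intervals from 0.759-fold to 1.28-fold. In basal cells 0 passed at a background of 0%, again with 0 at an unadjusted p under 0.05, and the intervals were wider, from 0.663-fold to 1.41-fold. The ranges of the genotypes stood apart for *Ruvbl2* in secretory cells (*WT/WT* 15.3 to 16.1 CPM, *MIS/MIS* 16.2 to 17.5), as for 5.5% of all genes, and for *Rpap3* in basal cells (12.8 to 16.9 against 17.1 to 18.3), as for 7.96% of all genes.

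**Figure D4:**
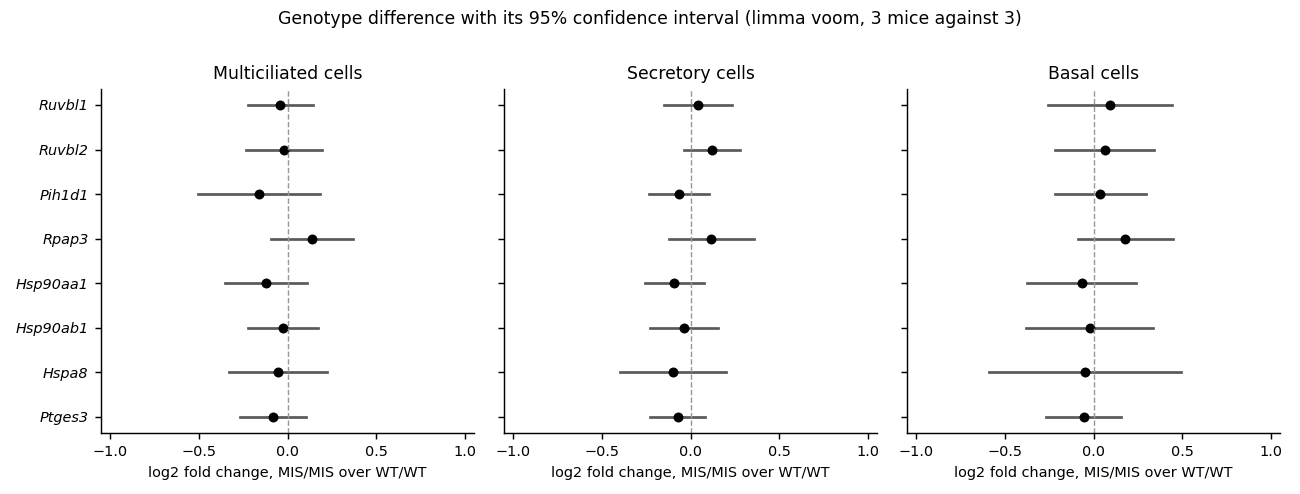
Log2 fold change of *MIS/MIS* over *WT/WT* mice for the 8 genes in multiciliated, secretory and basal cells (points) with the 95% confidence interval from limma's voom fit (lines), 3 mice against 3. Every interval crosses 0, and the intervals are widest for *Hspa8* in basal cells and for *Pih1d1* among the multiciliated values.

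In secretory cells *Ruvbl1* was at 25.3, 26.8 and 26.7 CPM in the *WT/WT* mice and at 28.2, 29.3 and 24.1 in the *MIS/MIS* mice (log2 fold change 0.043), and MT1383 was the mouse that placed the groups in overlap. *Hsp90aa1* was at 785, 797 and 747 CPM and at 763, 762 and 665 (-0.092). In basal cells *Hsp90aa1* was at 746, 1044 and 835 CPM and at 951, 819.8 and 813 (-0.068), with both ends of the range held by *WT/WT* mice. *Rpap3* in basal cells, at 12.8, 16.9 and 16.2 CPM against 17.1, 18.3 and 18.0, had the largest of the 8 differences there (0.18, standard error 0.11, adjusted p = 1.00).

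In 2 of the classes single libraries stood apart for several of the genes. In basal cells *WT/WT* mouse 1 had the lowest value of all 8 genes, for example *Ruvbl1* at 27.3 CPM against 37.3 to 41.9 in the other 5 mice and *Hsp90ab1* at 1560 against 2040 to 2506. This mouse held 1048 of the 1365 Basal4 cells, and Basal4 was the lowest cell type for *Hsp90aa1*, *Hspa8* and *Ptges3*. Its basal cells also had the highest sum of 8 heat-shock response genes (2306 CPM against 1574 to 1810). In secretory cells MT1383 was lowest for *Hspa8* (646 CPM against 807 to 926) and *Hsp90aa1* (665 against 747 to 797), and it was also lowest in the heat-shock sum (921 against 1150 to 1230). The sums of some lists had genotype ranges that stood apart. Single genes did so for 10% of all genes in multiciliated, 5.5% in secretory and 7.96% in basal cells, and no such share was computed for sums. In multiciliated cells, 6 basal markers summed to between 885 and 1175 CPM for *WT/WT* and between 560 and 748 for *MIS/MIS*, and 6 multiciliated markers to 1750 to 1876 and 1895 to 2280. The basal sum was mainly *Krt15*, with a mean of 786 CPM, where the next gene, *Dapl1*, had 25.4. Of the 5 basal markers tested there, 4 were lower and 1 higher in *MIS/MIS* mice, and of the 6 multiciliated markers 5 were higher and 1 lower. The early multiciliated (260 to 455 and 167 to 326 CPM) and secretory lists (757 to 1820 and 809 to 2352) overlapped there. Of the partner lists, the assembly factors stood apart in secretory cells (77.0 to 78.8 CPM for *WT/WT*, 79.6 to 83.1 for *MIS/MIS*). So did the remodeller genes in basal cells (418 to 470 and 475 to 488) and the early multiciliated markers in secretory cells (4.98 to 5.93 and 6.22 to 7.27). None of these list genes was at 0. Early response genes of dissociation were at 2851 to 3621 CPM in the basal cells of the *WT/WT* cultures and at 3685 to 3852 in those of the *MIS/MIS* cultures. The part of these in the differences was not tested.

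Within single cell types, 112 genotype differences were fitted, 8 genes in 14 cell types, and 0 passed. The background was 0.247% in Multiciliated4, 0.0229% in Multiciliated3, 0.00857% in Multiciliated2 and 0.00874% in Multiciliated1. It was 0.00759% in Secretory1, 0.00808% in Secretory2, 0.00896% in Basal2, 0.00847% in Basal3 and 0% in the other 6 basal cell types. Of the 112 differences, 50 were higher and 62 lower in *MIS/MIS* mice, and 3 had an unadjusted p under 0.05. Of all genes, 913 of 10544 had such a p in Basal5, 195 of 3645 in Multiciliated4 and 364 of 12369 in Secretory2. The 3 were *Ruvbl1* in Basal5, at 24.3 and 28.8 CPM in the 2 *WT/WT* mice with enough cells and at 34.2, 28.9 and 35.2 in the *MIS/MIS* mice (log2 fold change 0.38, adjusted p = 0.54), *Hspa8* in Multiciliated4, at 1265 and 1187 CPM in 2 *WT/WT* mice against 1590, 1279 and 1607 (0.28, adjusted p = 0.90), and *Hsp90aa1* in Secretory2, at 910, 947 and 896 CPM against 803, 852 and 835 (-0.15, adjusted p = 1.00). They were picked out for their p.

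The direction over cell types is a description, since the 14 fits share the mice. *Hsp90aa1* was lower in *MIS/MIS* mice in 13 of 14 cell types, at a median of -0.066 on the log2 scale and values from -0.20 to 0.13. *Rpap3* was higher in 11 of 14 (median 0.13), *Ruvbl1* in 11 (median 0.091) and *Ruvbl2* in 10 (median 0.11). *Hsp90ab1* was lower in 11, *Pih1d1* and *Hspa8* in 10 and *Ptges3* in 8 of 14. In Multiciliated3, the cell type with the most multiciliated cells, all 8 intervals lay between 0.795-fold and 1.198-fold, the narrowest span of the 14 cell types, and in Multiciliated4, with 146 cells, they lay between 0.444-fold and 1.70-fold.

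The genotype difference was not shown to differ between classes for any of the 8 genes. The interaction of genotype with multiciliated against secretory cells passed for 0 of them (background 0%, adjusted p = 1.00 for all), and that with multiciliated against basal cells for 0 (background 0%, lowest adjusted p = 0.978), with 0 of the 8 at an unadjusted p under 0.05 in either. The largest of these values was that of *Pih1d1*, -0.19 (standard error 0.15) relative to basal cells.

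The shares of the paralogues gave no difference that passed a test. In multiciliated cells the *Hsp90aa1* share was 72.4% ± 1.54 for the *WT/WT* and 71.1% ± 0.73 for the *MIS/MIS* mice (two-sided exact permutation test, p = 0.3, adjusted p = 0.84 over 6 tests, where 3 mice against 3 cannot go below 0.1). The differences were -0.78 percentage points in secretory cells (exact permutation p = 0.6) and -0.67 in basal cells (exact permutation p = 0.7). The *Ruvbl1* share differed by -0.36 percentage points in multiciliated (exact permutation p = 0.9), -1.18 in secretory (exact p = 0.5) and 0.53 in basal cells (exact p = 0.6), less than the spread between mice in each class.

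Among the partners, no list gene passed in any class. The median difference of the 13 assembly factors in multiciliated cells was 0.14 on the log2 scale, with 10 higher and 3 lower in *MIS/MIS* mice, the 18 cochaperones of -0.030 (7 higher, 11 lower), the 15 other clients of -0.040 (4 and 11), the 15 remodeller genes of 0.031 (8 and 7) and the 14 TRiC and prefoldin genes of -0.039 (3 and 11), beside 0.0066 for all genes. The heat-inducible *Hspa1b* had the largest difference among the HSP70 genes named, at 28.3, 22.7 and 31.2 CPM in multiciliated cells of *WT/WT* and at 23.9, 16.003 and 12.6 in those of *MIS/MIS* mice (log2 fold change -0.76, standard error 0.24, adjusted p = 0.90), with MT1301 inside the *WT/WT* range. *Hspa1a* was at 12.7, 10.7 and 13.3 CPM and at 10.7, 9.04 and 8.70 (-0.41, adjusted p = 0.90). *Hsph1* of the same list of 8 heat-shock response genes was at 200.1, 214 and 259 CPM and at 260.2, 328 and 248 (0.29, adjusted p = 0.90). The list had 1 gene higher and 7 lower, with a median of -0.089. At an unadjusted p under 0.05 (limma's voom test) there were 3 of these 8 genes, against 614 of all 14206, and 0 of the 8 passed after adjustment. *Hspa1a* and *Hspa1b* are near-identical copies, so that reads may have been divided between them. *Stip1* (0.056), *Ahsa1* (-0.052), *Cdc37* (0.011), *Wdr92* (-0.061), *Pih1d2* (0.011) and *Dnaaf2* (-0.020) had differences under their standard errors, and *Spag1* (0.18) and *Dnaaf4* (0.22) had differences above them.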

How the data were processed

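The members and lists were chosen with earlier results of these data known. The authors ran Cell Ranger on droplet libraries (version 7.1.0 and genome mm10 in the submitters' processing notes, where the study's methods name another version) and used Seurat for filtering and clustering. What the authors deposited is 1 table of unnormalized UMI counts by cell and 1 of cell type names. Because a literal slash and t stand where tabs belong, the counts could not be read as a standard table and their unit was recorded as other. For that record limma took the place of the planned negative binomial test. Split at these characters, all values were whole numbers, so the values themselves did not prevent such a test. Barcode prefixes gave the mouse. The numbers of the *MIS/MIS* animals match no sample title, so these mice have only their genotype.

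UMIs were summed per mouse and class (multiciliated, secretory, basal) or cell type (at least 20 cells). Genes needed a total of 15 and 10 counts at median depth in as many mice as the smaller genotype group held. This was 3 mice in the classes, and 2 in Basal4, Basal5, Basal7, Basal8 and Multiciliated4 and with a mouse left out. TMM factors used trims of 0.3 and 0.05. limma 3.58.1 (R 4.3.3) was run with voom weights, Benjamini-Hochberg adjustment over all genes and a threshold of 0.05, and was tested on simulated data. No doublet caller was run. Likeness used log2(CPM + 1) without a minimum of cells. Named were the members, fixed partners and the 3 genes most like each member, of which 1 is not reported here. *Hsph1*, *Nudc*, *Hspa12a*, *Dnajb13*, *Lyz2*, *Ptprc* and *Cd3e* were named after their values were seen, as were single genes of the cycling, secretory and basal lists. *Dnaaf6* was not analysed here. Positions are those of GENCODE M21 (GRCm38). Python 3.11.15 was used. Alternatives were upper-quartile factors, other count filters, each mouse left out, thinning to 5000 UMIs per cell, the stated cell filters, equal cluster weights, pooled UMIs, and, chosen after seeing the data, limma-trend, sample weights and fits without single clusters.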

Additional observations from a re-analysis of the deposited data

How the results depend on the processing

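No paired analysis was possible because *MIS/MIS* and *WT/WT* libraries carry no number in common, and those of the *MIS/MIS* mice (MT1301, MT1306, MT1383) appear in no title. The DESeq2 alternative and the planned edgeR test were not run. In the 3 classes, in single cell types and in the interaction, 0 of the 8 genes passed under any alternative that was run, with a lowest adjusted p of 0.59 in the classes, and 5 genes stayed at least 2-fold higher in multiciliated than in basal cells under all of them. Sign changes of the genotype difference were the effect seen: 15 of 24 log2 fold changes had one in some alternative, the largest of them 0.12 in size, and the cause was not tested. In multiciliated cells, equal cluster weights gave *Ruvbl1* 0.043, *Ruvbl2* 0.098 and *Ptges3* 0.0058, and *Ruvbl2* was 0.012 with sample weights, 0.020 thinned and 0.027 with the stated filters. In secretory cells *Rpap3* was -0.036 thinned. In basal cells, sample weights gave *Ruvbl1* -0.0090, *Ruvbl2* -0.059 and *Pih1d1* -0.043, leaving out Basal4 cells gave *Ruvbl2* -0.022 and *Pih1d1* -0.020, thinning gave *Ruvbl2* -0.035, and equal weights gave *Pih1d1* -0.025.

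With each mouse left out in turn, values in multiciliated cells ran from -0.086 to 0.012 for *Ruvbl1*, -0.069 to 0.050 for *Ruvbl2*, -0.26 to 0.0015 for *Pih1d1*, -0.077 to 0.013 for *Hsp90ab1* and -0.13 to 0.050 for *Hspa8*, with the upper ends without *WT/WT* mouse 2 or, for the last pair, MT1383. *Ruvbl2* was also positive without MT1306. In secretory cells *Hspa8* ran from -0.20 to 0.035 (without MT1383). In basal cells the ranges were -0.055 to 0.21 for *Ruvbl1*, -0.032 to 0.13 for *Ruvbl2* and -0.041 to 0.12 for *Pih1d1*, all negative without *WT/WT* mouse 1, and -0.13 to 0.066 for *Hsp90aa1*, -0.18 to 0.12 for *Hsp90ab1*, -0.25 to 0.12 for *Hspa8* and -0.087 to 0.022 for *Ptges3*, all positive without *WT/WT* mouse 2. *Hsp90ab1* and *Hspa8* were also positive without *WT/WT* mouse 3 and without MT1383. The *Hsp90aa1* share differed by -1.49 to 0.0047 percentage points in secretory and -1.82 to 0.64 in basal cells, and the *Ruvbl1* share by -1.64 to 0.86 in multiciliated and -0.34 to 1.46 in basal cells. All 4 turned in sign without *WT/WT* mouse 1, and the *Ruvbl1* share also without MT1301 (multiciliated) or MT1306 (basal). The fewest UMIs of a member per mouse were those of *Rpap3* in secretory cells (421 to 972).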
